A study of Danio rerio with 2 samples.

Results

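Differentiating muscle cells of the zebrafish tailbud were identified in single-cell RNA-seq data as barcodes that carried transcripts of the muscle genes *myog*, *acta1a*, *ttn.2*, *myl10* and *tnnt2c*. They were chosen by these values: at least 3000 unique molecular identifiers (UMIs, each marking 1 captured transcript), at most 15% mitochondrial UMIs, a summed count of at least 5 over the 5 genes with at least 3 of them detected, and no more than 2 UMIs of the neural genes *sox2*, *sox3* and *sox19a*. In wild type 623 of 17859 kept barcodes met the definition and in *stag2b*-/- 1131 of 25504, that is 1754 of 43363 kept barcodes and of 45064 deposited ones. Because the 5 genes chose the cells, their levels are described and not used as evidence.

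Both libraries came from tailbuds dissected by hand at 16 hpf (hours post fertilization) and dissociated with collagenase P and trypsin. One was wild type (strain AB in the sample labels, WIK in the study's methods) and the other carried the nz207 allele of *stag2b*, which encodes a subunit of the cohesin complex that holds chromatin fibres together and takes part in gene regulation. Tailbuds were pooled by genotype, so each genotype is 1 library of many embryos, and neither embryos nor replicates can be separated. A difference between the 2 pools cannot be told apart from a difference between genotypes, and no p-values are given. Intervals are exact 95% intervals of counting error (Clopper-Pearson for shares, Poisson for levels, conditional binomial for ratios).

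Skeletal muscle of the zebrafish trunk and tail comes from the paraxial mesoderm. In the posterior presomitic mesoderm, T-box factors such as Tbx16 and the bHLH factor Msgn1 mark cells that have left the progenitor zone, a segmentation clock of *her* genes oscillates, and Mesp and Ripply factors act where the next somite boundary will form. The myogenic factors Myf5 and Myod commit cells to muscle, while Myog and the Mef2 factors drive the genes of the sarcomere, the contractile unit in which actin thin filaments slide along myosin thick filaments between Z-discs. The first cells to differentiate are the adaxial cells beside the notochord, which receive Hedgehog signal, express *prdm1a* and *smyhc1* and become slow muscle. The remaining somite cells form fast muscle later. Adaxial cells begin to express *myod1* while they still lie in the presomitic mesoderm.

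The muscle cells held 12412870 UMIs in wild type and 18547031 in *stag2b*-/-, with medians of 18669 and 15178 UMIs per cell against 16084 and 14098 in the other kept barcodes. The median mitochondrial share was 3.08% and 2.25%. The 2 libraries shared 125 barcode sequences, and 1 of these was a muscle cell in both. The targeted gene *stag2b* (ENSDARG00000053668) was at 89.9 CPM (a gene's UMIs scaled to the total UMIs of the same cells) in wild-type and 47.0 CPM in *stag2b*-/- muscle cells, a log2 ratio (*stag2b*-/- over wild type, as everywhere below) of -0.94 with an interval of -1.07 to -0.81, so that its transcript was lower in the library labelled as mutant. Of 16 listed cohesin genes in the files, 8 reached 50 CPM in either library, and of these only *stag2b* was past 1.5-fold. *rad21a* was at 237 and 258 CPM and *smc1al* at 226 and 217 CPM. *stag1b*, the subunit that can take the place of Stag2, did not reach 50 CPM and was at 34.1 and 40.9 CPM.

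Detection of the defining genes is described beside a background set. The muscle cells were chosen for these genes and the background excludes barcodes that met the definition. The contrast therefore follows in part from the choice. Beside cells of the epidermis gate (at least 5 UMIs and 2 genes of *epcam*, *cdh1*, *tp63* and *krt4*), which should lack muscle transcripts and had medians of 21087.5 and 19351 UMIs, *myog* was detected in 47.7% of wild-type and 57.2% of *stag2b*-/- muscle cells against 0.299% and 0.815%. *acta1a*, a skeletal alpha-actin, was detected in 99.84% and 97.97% of muscle cells but also in 35.8% and 29.8% of epidermal ones, so that a single *acta1a* UMI did not mark a muscle cell. *tnnt2c*, a troponin T, was detected in 31.8% of wild-type and 56.5% of *stag2b*-/- muscle cells against 0.256% and 1.19%. After thinning every barcode to 3000 UMIs the 2 values in muscle cells were 20.1% and 39.8%. The median sum of the 5 genes was 63 UMIs in wild type and 70 in *stag2b*-/-, and few cells lay at the limit of the sum. A sum of exactly 5 was found in 7 and 16 barcodes, and 13 and 13 with 3 or more genes fell just short at 4. The requirement for 3 genes decided more. Exactly 3 of the 5 genes were detected in 337 wild-type and 447 *stag2b*-/- muscle cells. A further 596 and 777 barcodes had a sum of 5 or more from only 2 genes and were left out. All shares given below require 3 genes, and a share with 2 genes was not computed.

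The label "differentiating muscle" needs a qualification from the data, because most of these cells also carried transcripts of segmenting mesoderm. The posterior genes *msgn1*, *tbx16* and *tbx16l* passed a gate of 5 UMIs and 2 genes in 78.3% of wild-type and 66.1% of *stag2b*-/- muscle cells, against 46.6% and 48.3% of the other kept barcodes. A single *msgn1* UMI was found in 33.2% and 46.8% of epidermal cells, so that low counts of it are also background. The segmentation genes *mespaa*, *mespab*, *mespba*, *mespbb*, *ripply1* and *ripply2* passed it in 81.5% and 76.1%, against 21.6% and 25.5% of the other barcodes. Cells in neither gate were 6.10% in wild type (interval 4.35 to 8.28) and 11.7% in *stag2b*-/- (9.86 to 13.7). The gates count raw UMIs, of which wild-type muscle cells had more (medians 18669 and 15178), and these gate shares were not computed after thinning. Some genes of late muscle were low. The fast myosin light chain *mylpfa* was at 3.38 and 10.3 CPM and the fast myosin heavy chain *myhz2* at 0 and 0.0539 CPM. The fusion protein gene *mymk* (Myomaker) was at 7.009 and 4.098 CPM. Other fast genes were not low, with *tnnc2* at 179 and 208 CPM and *actn3b* at 177 and 345 CPM. The list of the fast programme summed to 514 and 800 CPM. *en2a*, the engrailed gene of muscle pioneer cells, was at 0.0806 and 0.324 CPM. The sclerotome markers *pax1a*, *pax1b*, *pax9* and *nkx3-2* summed to 1.69 and 1.78 CPM. The cells are therefore described as early muscle cells that still carried segmentation transcripts, with part of the fast programme expressed.

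RNA of other lineages was also present. In wild-type and *stag2b*-/- muscle cells, 5.94% and 6.90% passed the epidermis gate, 2.57% and 2.21% the notochord gate (*noto*, *shha*, *shhb*, *loxl5b*, *col9a1a*, *tbxta*), 1.77% and 2.30% the blood gate (*gata1a*, *hbae3*, *hbbe3*, *hbbe1.1*), 0.803% and 0.884% the endothelium gate and 0.321% and 0.796% the neuron gate. The 4 blood genes summed to 51.1 and 213 CPM in muscle cells, the 4 epidermal genes to 490 and 410 CPM. No doublet caller was run. Results were also computed without barcodes in the epidermis, notochord, blood or neuron gate or above the 98th percentile of genes (66 wild-type and 136 *stag2b*-/- muscle cells). The endothelium gate was not used for this.

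Muscle cells were a larger share of the *stag2b*-/- library. They made up 3.49% of kept wild-type barcodes (interval 3.22 to 3.77) and 4.43% of *stag2b*-/- barcodes (4.19 to 4.69). The defining genes themselves differed between the libraries, which a count of cells over a threshold cannot separate from a difference in the number of cells: *tnnt2c* was at 212 and 760 CPM in muscle cells, *ttn.2* (titin, the spring of the sarcomere) at 1076 and 2127 CPM, *myl10* (a myosin light chain) at 2670 and 3514 CPM, *myog* at 134 and 170 CPM, and *acta1a* at 3130 and 2367 CPM. Leaving out *myog* gave 3.34% and 4.24%, and leaving out *tnnt2c* gave 3.438% and 4.199%. Without *acta1a*, *ttn.2* or *myl10* the wild-type share fell to between 1.60% and 1.71% and the *stag2b*-/- share to between 2.76% and 2.85%. After thinning to 3000 UMIs the shares were 2.13% and 3.22%. A gate of 5 other muscle genes (*desma*, *klhl41b*, *musk*, *mybphb* and *tnnc2*), chosen after the values had been seen, gave 2.54% and 3.42%, and 0.930% and 1.68% after thinning. In each of these versions the *stag2b*-/- share was the larger one and the counting intervals of the 2 libraries did not overlap. The versions reuse the same barcodes and mostly the same genes, so that they are no separate support. With 1 library per genotype the intervals do not cover the spread between pools.

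**Figure D1:**
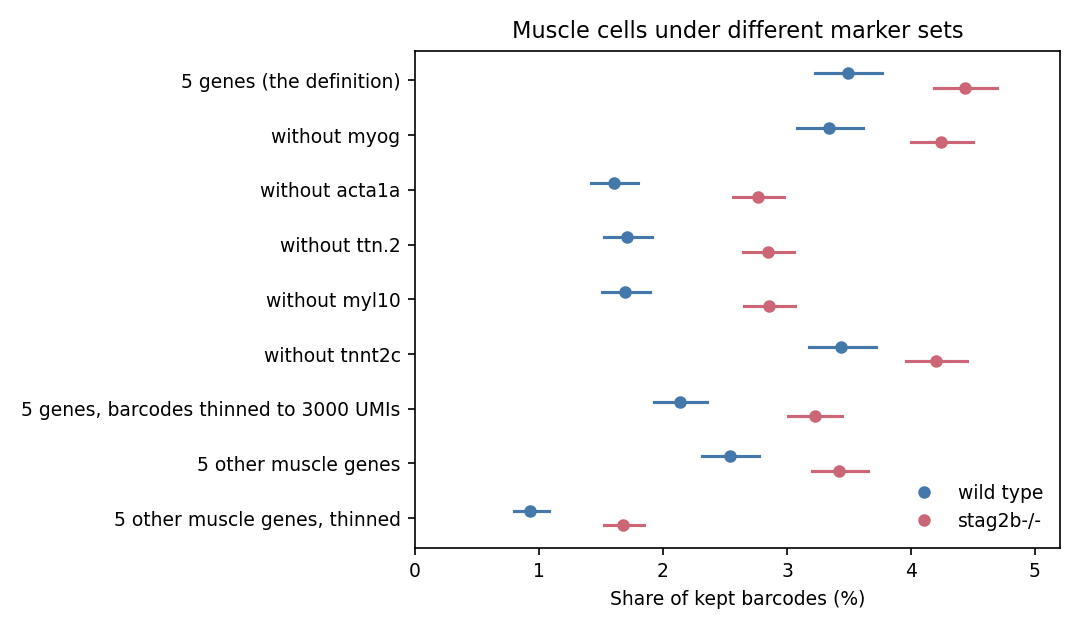
Share of kept barcodes (%, horizontal axis) that passed as muscle cells in wild type and *stag2b*-/- under the definition, without each of its genes, with 5 other muscle genes and after thinning; points are shares and lines are exact 95% intervals of counting error. The definition gave 3.49% and 4.43%, and the *stag2b*-/- point lies to the right of the wild-type point in every row.

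Outside the defining genes, the cells were set apart by the contractile apparatus. Among the 2935 genes that reached 50 CPM in muscle cells of either library, 308 were at least 2-fold higher in muscle cells than in all other kept barcodes in both libraries (10.5%), as were 25 of 29 sarcomere genes outside the definition. The 10 highest, ranked by the lower of the 2 libraries' ratios, were *smyhc1*, *xirp1*, *aldoab*, *asb12b*, *myl13*, *tnnc2*, *obsl1a*, *tpma*, *txlnba* and *neb*. *smyhc1*, the slow myosin heavy chain of adaxial cells, was 200-fold higher than in other cells in wild type and 156-fold higher in *stag2b*-/-. *xirp1*, which encodes the actin-binding protein Xin, was 199-fold and 137-fold higher, and *tnnc2*, the fast troponin C, was 124-fold and 109-fold higher. *aldoab*, a muscle aldolase of glycolysis, was 218-fold and 133-fold higher at 89.8 and 130 CPM. *asb12b*, an ankyrin-repeat protein, was at 54.5 and 96.9 CPM, and *txlnba*, of the taxilin family, at 266 and 424 CPM. Slow and fast genes thus stood together in this list. These ratios describe cells that were chosen for muscle transcripts and are no test.

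Between genotypes, 244 of the 2935 genes were at least 1.5-fold higher in *stag2b*-/- muscle cells (8.31%) and 115 were at least 1.5-fold lower (3.92%). The median gene had a log2 ratio of 0.08, and a gene that moves with the bulk has this value and not 0. Higher genes were 68.0% of the calls when levels were scaled to the total. Under TMM scaling (a trimmed mean of log ratios that sets aside extreme genes), the median gene was at -0.12, 127 genes were higher and 233 lower, and higher genes were 35.3% of the calls. Values below are scaled to the total and are to be read against this median.

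Among the myogenic regulators, 14 of 24 genes in the files reached 50 CPM, 3 were called higher and 1 lower, and their median log2 ratio was 0.21. Over all genes 8.31% were higher and 3.92% lower. Of the higher regulators, *klhl31* reached 50 CPM only in *stag2b*-/-. *myf5*, the first of the myogenic bHLH factors to be expressed, was at 1337 and 710 CPM in wild-type and *stag2b*-/- muscle cells, a log2 ratio of -0.91 (interval -0.95 to -0.88). It was lower in the other barcodes as well, at 403 and 253 CPM. *myod1*, which commits cells to muscle beside Myf5, was at 726 and 670 CPM (log2 ratio -0.12), so that *myf5* was past the threshold and *myod1* was not. *myog*, used in the definition, was at a log2 ratio of 0.34. *mef2d*, the most abundant of the Mef2 factors, was at 1019 and 1255 CPM (0.30), *mef2ca* at 53.0 and 68.9 CPM (0.38) and *mef2cb* at 52.2 and 88.4 CPM (0.76, interval 0.63 to 0.89). The call on *mef2cb* was lost without *acta1a*, *ttn.2* or *myl10* in the definition, where it reached 0.41 at the lowest, and under TMM. *klhl31*, a Kelch-repeat protein of striated muscle, was at 18.1 and 74.2 CPM, a log2 ratio of 2.04 (1.84 to 2.25), and it was detected in 20.9% and 49.5% of muscle cells against 0.299% and 0.690% of epidermal ones. The related *klhl41b* was at 201 and 302 CPM (0.59), at the threshold, and lost its call under 10 of 15 alternatives. *rbfox1l*, a splicing factor of muscle, was at 214 and 147 CPM (-0.55).

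Genes of the thin filament moved in both directions. Of 15 tested, 6 were higher, 2 were lower and the median log2 ratio was 0.37, beside 8.31% higher and 3.92% lower over all genes. These values include the defining genes *tnnt2c*, called higher, and *acta1a*. Of the higher ones, *tpm1*, *tmod4* and *tnnt3b* reached 50 CPM only in *stag2b*-/-, and the lower *actc1c* only in wild type. The filter favoured them and the counts are a description only. The alpha-actins diverged: *actc1b* was at 535 and 1051 CPM (log2 ratio 0.98), whereas *actc1a* was at 1738 and 1103 CPM (-0.66), *actc1c* at 61.5 and 21.4 CPM (-1.52), *acta1a* at 3130 and 2367 CPM (-0.40) and *acta1b* at 169 and 190 CPM (0.17). These actins are near-identical copies, *actc1a* is the sum of 2 annotated genes, and reads could have been divided among them in counting, so that each single value is uncertain. The 5 actins together with *tnnt2c* account for most of the thin filament list, whose summed level of 7614 and 7792 CPM differed by 0.03 on the log2 scale. Nebulin (*neb*), which runs along the thin filament, was at 86.2 and 199 CPM (1.21, interval 1.11 to 1.31). *tmod4*, a tropomodulin that caps its pointed end, was at 24.97 and 62.6 CPM (1.33). Of the tropomyosins, *tpm1* was at 23.0 and 51.4 CPM (1.16), *tpma*, the most abundant, at 563 and 622 CPM (0.14) and *tpm2* at 191 and 150 CPM (-0.34). *tnnt3b*, a fast troponin T, was at 34.3 and 54.4 CPM (0.66) and lost its call under 5 alternatives. The calls on *actc1b*, *obsl1a*, *xirp1* and *ryr1a* were lost without *acta1a*, *ttn.2* or *myl10* in the definition.

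In the thick filament and titin list, 3 of 8 tested genes were higher, none was lower and the median log2 ratio was 0.49. Over all genes 8.31% were higher and 3.92% lower. The list values include the defining genes *ttn.2*, called higher, and *myl10*. The higher *obsl1a* reached 50 CPM only in *stag2b*-/-, so that the filter favoured it and the count is a description only. *myl13*, a myosin light chain, was at 178 and 604 CPM (log2 ratio 1.76, interval 1.69 to 1.83). *ttn.2* was at 0.98, while *ttn.1*, the adjacent copy of titin, was at 1535 and 1884 CPM (0.30). *obsl1a*, of the obscurin family that links titin to the M-band, was at 33.6 and 66.8 CPM (0.99). *smyhc1* was at 241 and 361 CPM (0.58), just short of 1.5-fold, and it too has close copies with which reads may be shared. *myh7ba*, another myosin heavy chain, did not reach 50 CPM in either library and was at 48.0 and 15.5 CPM.

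In the Z-disc list 5 of 10 tested genes were higher and none was lower, beside 8.31% higher and 3.92% lower over all genes. Of the higher ones, *csrp1b*, *xirp1* and *synpo2lb* reached 50 CPM only in *stag2b*-/-, and the filter favoured them. The median of the list was 0.74, a value that was 0.11 to 0.29 without *acta1a*, *ttn.2* or *myl10* in the definition. *ldb3a*, the Z-disc protein Cypher, was at 151 and 378 CPM (log2 ratio 1.33, interval 1.25 to 1.40). *actn3b*, the alpha-actinin that crosslinks thin filaments at the Z-disc, was at 177 and 345 CPM (0.96). *xirp1* was at 39.96 and 74.57 CPM (0.90) and *synpo2lb*, a synaptopodin-like protein, at 29.9 and 63.4 CPM (1.08). *desma*, the intermediate filament desmin, was at 228 and 339 CPM (0.57), again just short of the threshold. *csrp1b*, a LIM-domain protein, was at 4.11 and 80.7 CPM (4.295), the largest rise of all genes tested, and it was as unequal in the other barcodes at 5.42 and 85.0 CPM.

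Over the 3 sarcomere lists without the defining genes, 12 of 29 tested genes were higher and 2 were lower, where 8.31% and 3.92% of all genes were called. Genes entered this count if either library reached 50 CPM, and 7 of the 12 higher ones reached it only in *stag2b*-/-, as did 134 of the 244 higher genes of the whole set, so that the filter favours such genes and the count is a description only. The other listed genes, of 93 in the files, entered no count. Levels were also summed over every listed gene, tested or not and the defining ones included. The sum was 7614 and 7792 CPM for the thin filament, 6070 and 8965 CPM for the thick filament and 1314 and 2069 CPM for the Z-disc. The thick filament sum holds the defining genes *ttn.2* and *myl10*, both at higher levels in *stag2b*-/-. The thin filament sum holds *tnnt2c*, at a higher level there, and *acta1a*, at a lower one. The median of the 29 was 0.57, against 0.08 for the median gene. Under TMM the sarcomere median was 0.22, against -0.12 for the median gene. The 50 CPM filter was applied again to the rescaled levels, so that 0.22 is not for the same 29 genes. The distance between 0.57 and 0.22 is thus partly set by the filter. The sarcomere median also depended on which cells were admitted. It was 0.11, 0.14 and 0.12 when *acta1a*, *ttn.2* or *myl10* was left out of the definition, which kept fewer cells. These values too are over the genes that then passed the filter. The number of higher genes was then 8 in each case.

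Genes of calcium release and the neuromuscular synapse were mostly too low to test, with 5 of 34 reaching 50 CPM. Of these, 2 were higher and none lower, beside 8.31% higher and 3.92% lower over all genes. The higher ones, *srl* and *ryr1a*, reached 50 CPM only in *stag2b*-/-, so that the filter favoured them and the count is a description only. *srl* encodes sarcalumenin, a calcium-binding protein of the sarcoplasmic reticulum. It was at 32.5 and 150 CPM in wild-type and *stag2b*-/- muscle cells, a log2 ratio of 2.21 (2.06 to 2.36), and was detected in 18.3% and 39.1% of the cells against 2.22% and 2.10% of epidermal ones. *ryr1a*, the ryanodine receptor of slow fibres, was at 26.3 and 51.2 CPM (0.96). *musk*, the receptor kinase that organises the synapse, was at 184 and 241 CPM (0.39). In the list of membrane links, dystrophin (*dmd*) was at 48.7 and 90.4 CPM (0.89), and *dag1* (dystroglycan) at 341 and 386 CPM (0.18). Here too *dmd* reached 50 CPM only in *stag2b*-/-. Of the chaperones that fold myosin, *unc45b* was at 956 and 814 CPM (-0.23), *hsp90aa1.1* at 1439 and 1631 CPM (0.18) and *smyd1b* at 206 and 282 CPM (0.45), none of them called. The small heat shock protein gene *hspb1* was called lower at 1899 and 1253 CPM (-0.60) and lost the call under 5 alternatives. None of the 4 energy genes tested was called. Of 10 genes of cell fusion in the files, *cdh2* and *jam3b* reached 50 CPM and neither was called.

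**Figure D2:**
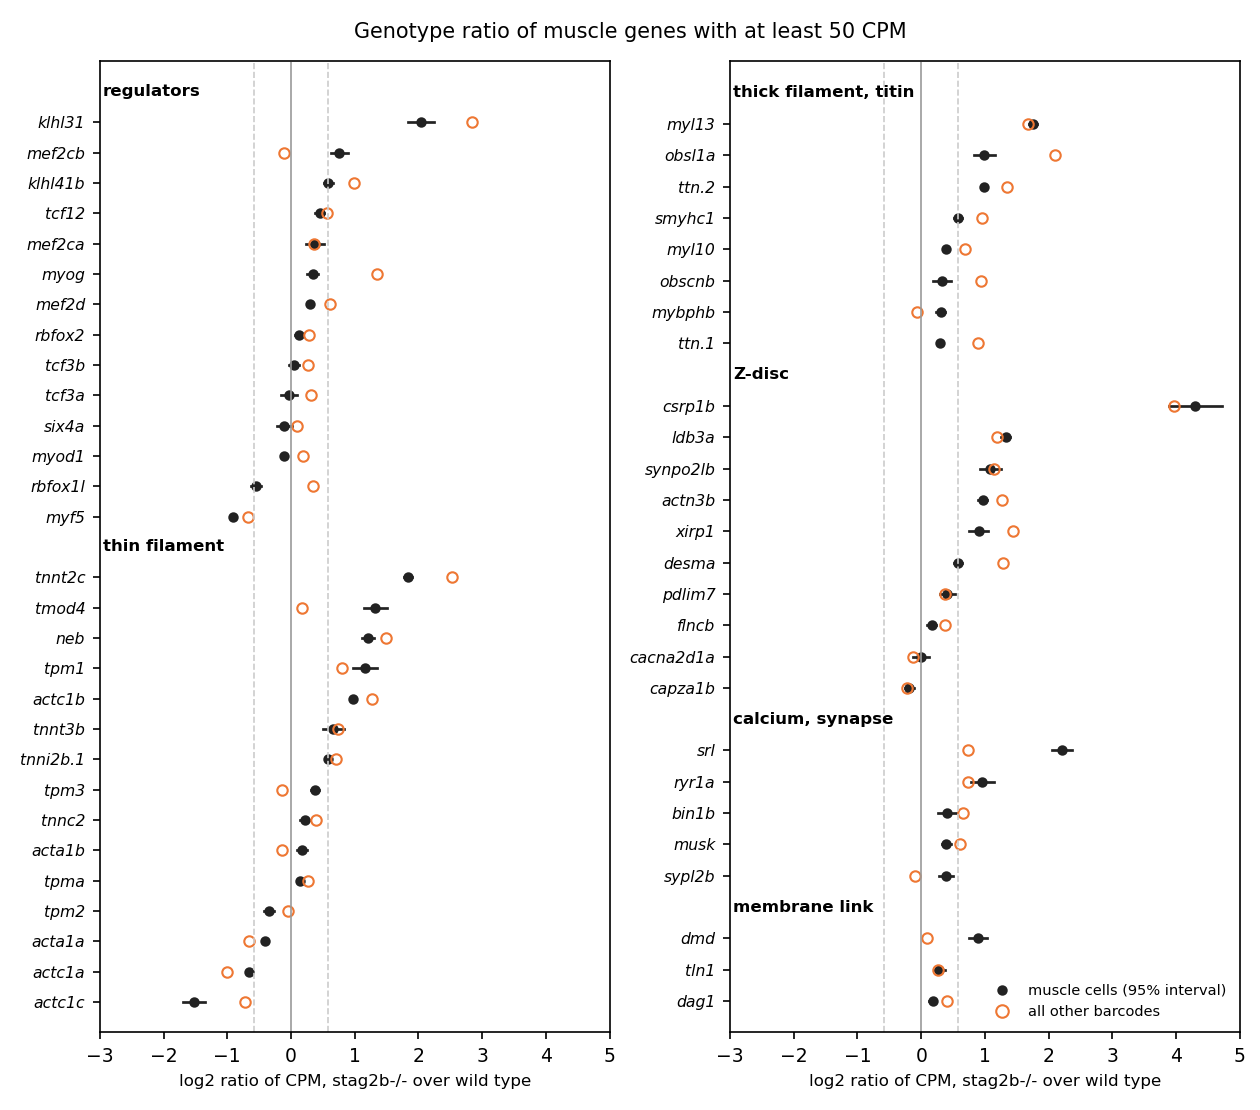
Log2 ratio of CPM, *stag2b*-/- over wild type, for listed muscle genes with at least 50 CPM, grouped by role; filled points with bars are muscle cells with exact 95% intervals of counting error, open circles are all other kept barcodes, and dashed lines mark 1.5-fold. Most sarcomere genes lie right of 0 in both, *actc1a* and *actc1c* lie left in both, and *srl*, *tmod4*, *mef2cb* and *dmd* are further right in muscle cells.

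The same genes were compared between genotypes in the 41609 kept barcodes outside the definition. The ratio was at least 1.5-fold higher in muscle cells than in other barcodes for 49 genes (1.67%) and at least 1.5-fold lower for 52 (1.77%). Of 56 tested genes of the muscle lists outside the definition, 18 were higher in *stag2b*-/- muscle cells, and 15 of these 18 were also at least 1.5-fold higher in the other barcodes, as were 138 of the 244 higher genes of the whole set (8.31% of those tested). There their levels were low, such as 5.11 and 12.3 CPM for *actc1b*, and the other barcodes include cells that narrowly missed the definition. When barcodes with more than 1 defining gene or in the gate of 5 other muscle genes were also left out (1294 wild-type and 1731 *stag2b*-/- barcodes, a comparison added after seeing the data), 12 of the 18 were still past 1.5-fold. The sarcomere median over the 28 genes with enough UMIs was then 0.46 in these other barcodes and 0.49 in muscle cells. In all other barcodes it was 0.72. By list, defining genes included, the medians in these barcodes and in muscle cells were -0.02 and 0.37 for 15 thin filament genes, 1.08 and 0.40 for 7 thick filament genes, and 0.85 and 0.74 for 10 Z-disc genes. The thin filament median was thus higher in muscle cells and the thick filament and Z-disc medians were lower there. The stricter set was made by leaving out barcodes on muscle genes, and this moved the medians. In all other barcodes they were 0.26, 0.93 and 1.17 for the same genes. The size of these contrasts is therefore partly set by the filter and is a description only.

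A few genes departed from this. *srl* had a ratio in muscle cells that exceeded that in other barcodes by 1.48 on the log2 scale (interval 1.24 to 1.72). Against the stricter set, where *srl* was at 1.02 and 0.883 CPM, the difference was 2.42. That filter took out 17.7% of wild-type and 56.6% of *stag2b*-/- *srl* UMIs of the other barcodes, so that it partly sets this larger value. The ratio of *tmod4* in muscle cells exceeded that in other barcodes by 1.16 (0.88 to 1.44), with 0.996 and 1.12 CPM in the latter. *tnc*, the extracellular matrix protein tenascin C, was at 56.2 and 136 CPM in muscle cells (1.27) but at 9.44 and 7.21 CPM in other barcodes (-0.39), a difference of 1.66 (1.52 to 1.81). *mef2cb* differed by 0.87 (0.70 to 1.03) and *dmd* by 0.80 (0.66 to 0.93). *lman1*, a cargo receptor of the secretory pathway, was at 13.1 and 54.4 CPM and differed by 1.31, but by 0.48 from cells of the segmenting gate outside the definition, where it was at 8.19 and 24.2 CPM. Against the same segmenting cells *srl* differed by 2.39, *mef2cb* by 1.32, *dmd* and *tnc* by 0.89, and *tmod4* by 0.67. In the other direction *tmem119b*, a transmembrane protein, was at 77.4 and 5.18 CPM in wild-type and *stag2b*-/- muscle cells (log2 ratio -3.90) against 30.9 and 12.7 CPM in other barcodes (-1.28). It was thus 2.50-fold higher in muscle than in other cells in wild type and 0.407-fold in *stag2b*-/-. In segmenting cells *tmem119b* was also lower, at 32.5 and 6.09 CPM (-2.42). *CT956002.2* was at 60.3 and 16.3 CPM in muscle cells (-1.88), at 20.6 and 20.3 CPM in all other barcodes and at 40.4 and 24.0 CPM in segmenting cells (-0.75). *obsl1a*, *dusp27* and ENSDARG00000112015 were higher in *stag2b*-/- in both, with ratios smaller in muscle cells by 1.104, 1.929 and 1.961.

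**Figure D3:**
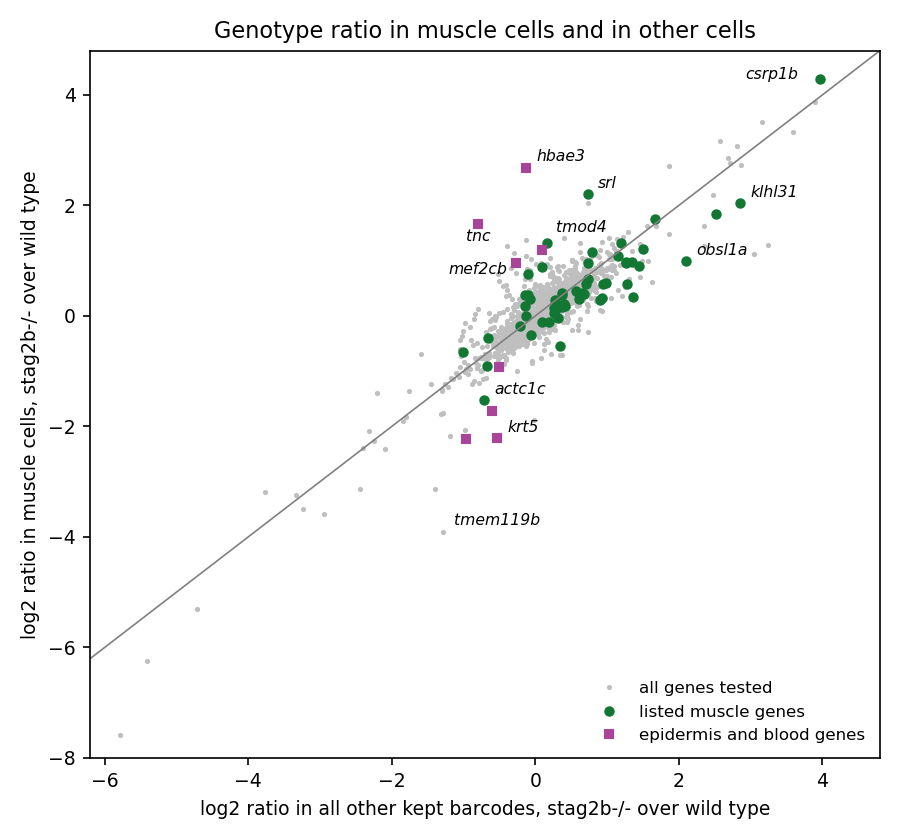
Log2 ratio of *stag2b*-/- over wild type in muscle cells (vertical) against that in all other kept barcodes (horizontal), for genes with at least 50 CPM in muscle cells and at least 10 UMIs in each sum of the other barcodes; green points are listed muscle genes, purple squares epidermis and blood genes, and the line marks equal ratios. Most muscle genes lie near or under the line, with *srl* at 2.21 and 0.73 above it and *tmem119b* at -3.90 and -1.28 below it.

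The muscle cells are described here by a sarcomere score, the UMIs of the 3 sarcomere lists without the defining genes per 10000 UMIs of a cell. Whether they form a continuum was not tested. The score also sorted cells of the slow programme, defined below, from the rest. Their median score was 147 in wild type and 176 in *stag2b*-/-, against 38.9 and 45.5 in the other muscle cells. A level along the score is thus also a comparison of these cells with the others. The muscle cells were divided at scores of 39.99 and 93.36 into tertiles over both libraries, each library weighted equally. The tertiles are ranges of the score and not cell types, and 40 and 47 wild-type and 97 and 79 *stag2b*-/- cells lay within 10% of the 2 limits. The lower tertile held 37.4% of wild-type and 29.3% of *stag2b*-/- muscle cells, the upper one 29.7% (26.1 to 33.5) and 37.1% (34.2 to 39.9). The cells with the highest scores, 320 or more, were 2.57% and 5.22%.

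**Figure D4:**
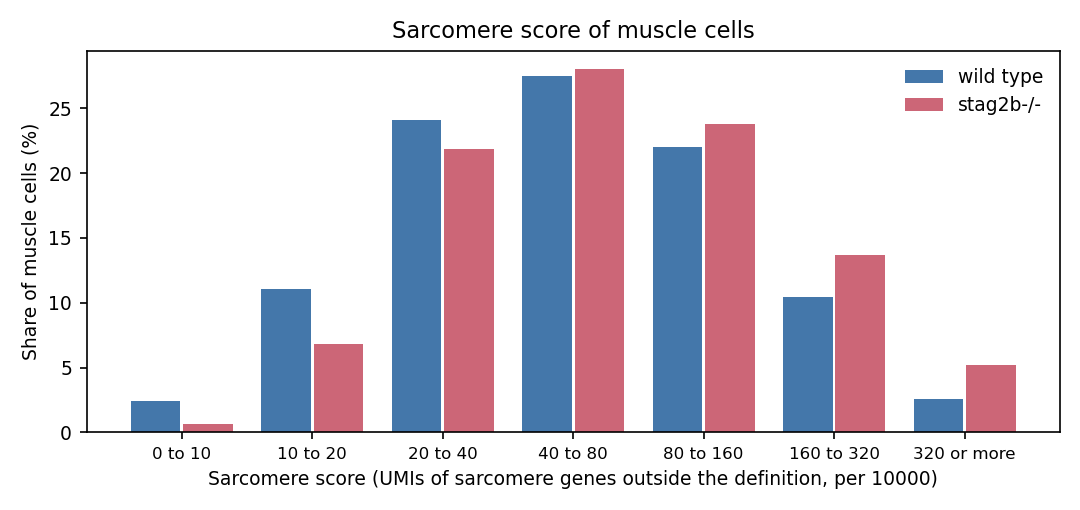
Share of muscle cells (%, vertical axis) by sarcomere score (UMIs of sarcomere genes outside the definition per 10000, horizontal axis) in wild type and *stag2b*-/-. The bars of *stag2b*-/- are lower below a score of 40 and higher from 40 upward, with 2.57% and 5.22% of cells at 320 or more.

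Along the score the muscle regulators were higher, while segmentation transcripts did not fall throughout. The share of cells in the segmenting gate was 76.4%, 82.9% and 86.5% from the lower to the upper tertile in wild type and 71.3%, 76.4% and 79.7% in *stag2b*-/-. In wild type *msgn1* was at 1739, 2031 and 811 CPM, highest in the middle tertile, and *mki67*, a marker of cycling cells, at 273, 103 and 31.8 CPM. *mef2d* was at 381, 1157 and 1819 CPM, *myog* at 7.53, 77.0 and 384 CPM, and *cdkn1ca*, an inhibitor of the cell cycle, at 379, 731 and 802 CPM. *myod1* went from 318 through 755 to 1299 CPM. In *stag2b*-/- it reached 952 CPM in the upper tertile, a log2 ratio there of -0.45. *myf5* was lower in *stag2b*-/- in each tertile, with log2 ratios of -0.82, -0.91 and -1.12.

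Because the score is the sum of the sarcomere genes outside the definition, cells of 1 tertile are alike in that sum, which by construction makes the genotypes more alike in these genes. The median of the tested sarcomere genes outside the definition was 0.28, 0.11 and 0.26 in the lower, middle and upper tertile, against 0.08 for all genes in each. *myog* was higher in *stag2b*-/- in the lower tertile, at 7.53 and 24.0 CPM, but level in the upper one, at 384 and 371 CPM. *smyhc1* was at 817 and 1024 CPM in the upper tertile (0.33) and *ttn.1* at 2700 and 3195 CPM (0.24). Single genes outside the definition were still higher in *stag2b*-/- in each tertile, by amounts that for most of them were smaller in the upper than in the lower one. *srl* had log2 ratios of 2.49, 2.47 and 1.91, *klhl31* of 4.22, 2.02 and 1.68 and *ldb3a* of 2.44, 1.37 and 1.01. *myl13* was at 1.48, 1.97 and 1.48, and *actc1b* at 1.44, 1.04 and 0.68. In the lower tertile several of these rest on few UMIs, with *klhl31* at 0.579 CPM and *srl* at 0.772 CPM in wild type. *acta1a* was lower in each tertile, at -0.43, -0.83 and -0.54, and *actc1c* fell furthest behind in the upper one, at 181 and 50.8 CPM (-1.84). There were 15 alternatives that changed the cells, the scaling or the weighting of cells. Across these, 11 of the 18 muscle-list genes called higher stayed past 1.5-fold: *klhl31*, *tpm1*, *neb*, *tmod4*, *myl13*, *actn3b*, *ldb3a*, *csrp1b*, *synpo2lb*, *srl* and *dmd*. The 50 CPM minimum was not applied again for this count, so that it covers the ratio only. At a 2-fold threshold *actn3b* and *dmd* were not called. The alternatives reuse the same 2 libraries, so that a ratio that stays past the threshold is no separate support. Of the 11, *klhl31*, *tpm1*, *tmod4*, *csrp1b*, *synpo2lb*, *srl* and *dmd* reached 50 CPM only in *stag2b*-/-, and the filter favoured them. Of all 244 higher genes, 127 kept the call under TMM with the 50 CPM minimum applied again, the lowest number among the 15. How many kept it under all 15 was not counted.

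**Figure D5:**
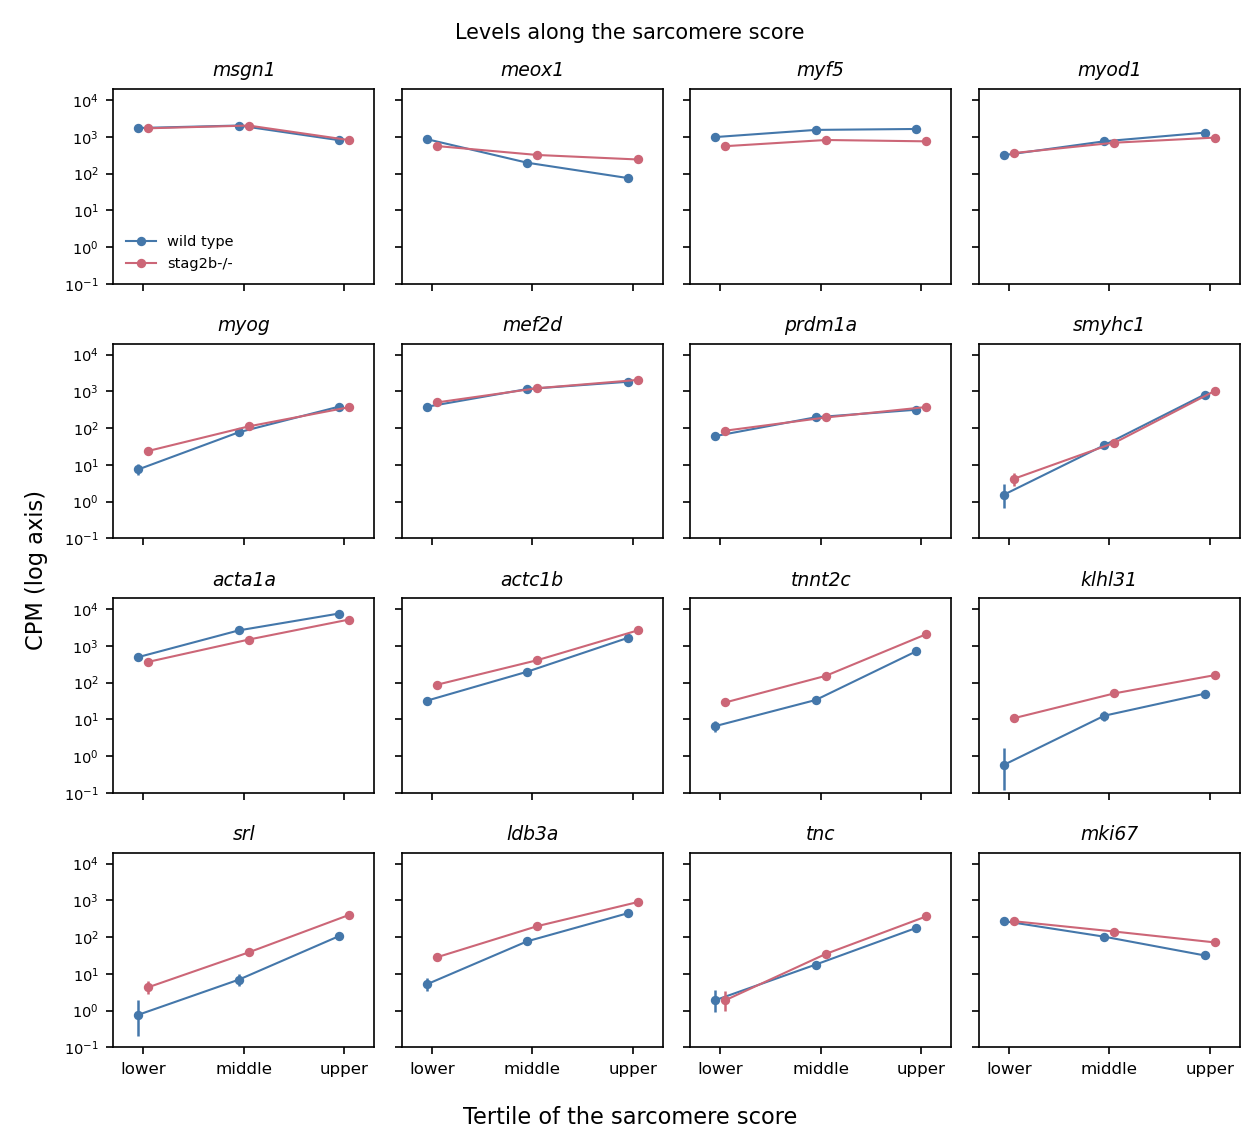
CPM (log axis, the same in every panel) of 16 genes in the lower, middle and upper tertile of the sarcomere score in wild type and *stag2b*-/-; points are levels and vertical lines exact 95% Poisson intervals. *myf5* is lower and *klhl31*, *srl* and *ldb3a* are higher in *stag2b*-/- in each tertile, while the *smyhc1* and *msgn1* lines nearly coincide and the *meox1* lines cross. *tnnt2c*, also higher in each tertile, *myog* and *acta1a* are defining genes and are shown as description only.

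Cells of the slow programme were defined by at least 3 UMIs of *smyhc1*, *smyhc2* and *prdm1a* with at least 2 of them detected. They were 28.1% of wild-type muscle cells (24.6 to 31.8) and 31.3% of *stag2b*-/- ones (28.6 to 34.1), intervals that overlap. After thinning the shares were 15.5% and 18%. The order turned when the definition left out *acta1a* (57.3% and 48.5%), *ttn.2* (53.8% and 47.9%) or *myl10* (55.0% and 47.0%). It also turned when 2 UMIs of the 3 slow genes sufficed, with no minimum of detected genes (67.4% and 65.2%). No order of the genotypes is therefore read from the share of slow-programme cells. They were 1.29% and 2.42% of the lower tertile and 78.4% and 70.6% of the upper one, in part by construction, since *smyhc1* is in the score. In these cells *smyhc1* was at 779 and 1023 CPM and *prdm1a*, the factor that starts the slow fate, at 297 and 354 CPM. *smyhc2* was barely present, at 2.82 and 3.99 CPM over all muscle cells. Genes that stood apart between slow-programme cells and the other muscle cells in both libraries, named after their values were seen, included *tnni1c*, a troponin I, at 50.3 and 34.7 CPM against 1.39 and 0.576 CPM, and *fhl1a*, a LIM-domain protein, at 38.9 and 78.8 CPM against 0.463 and 2.80 CPM. *tnc* was at 164 and 357 CPM against 8.92 and 18.9 CPM. *srl* was at 98.5 and 389 CPM in slow-programme cells and at 3.59 and 24.6 CPM in the other muscle cells, so that it was higher in *stag2b*-/- in both. Of the Hedgehog targets and mediators, *gli1* was at 190 and 182 CPM and *gli2a* at 507 and 605 CPM over all muscle cells. Genes of the fast programme were mostly under 50 CPM, and of the 3 tested, *tnnt3b* and *actn3b* were called higher and *tnnc2* was at 179 and 208 CPM (0.22). Over all genes 8.31% were called higher, and *tnnt3b* reached 50 CPM only in *stag2b*-/-.

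Some somite and segmentation genes differed between genotypes in the upper tertile, and those named here were picked after their values had been seen. In that tertile, 5 of 19 tested genes of the earlier paraxial mesoderm were higher and 1 lower, with a median of 0.01. Of 6 genes of somite derivatives, 2 were higher and 1 lower, with a median of -0.19. Over all genes, 297 of 2883 were higher and 169 lower, with a median of 0.08. Higher genes were thus a larger share of these lists than of all genes, though on few genes. The list medians did not lie above that of all genes. The counts are a description only. *meox1*, a homeobox gene of formed somites, was at 865 and 562 CPM in the lower tertile (log2 ratio -0.62) and at 75.8 and 242 CPM in the upper one (1.68). In the upper tertile it was higher in *stag2b*-/- among slow-programme cells, at 77.9 and 240 CPM (1.62, interval 1.42 to 1.83), and among the others, at 64.4 and 250 CPM (1.956, 1.445 to 2.51). *tcf15* (Paraxis), needed for the epithelial somite, was at 32.03 and 99.97 CPM in slow-programme cells of the upper tertile, and *mespba* at 18.9 and 61.0 CPM. *mki67* was at 33.0 and 79.5 CPM in the same cells. In these slow-programme cells, 26.2% of wild-type (38 of 145) and 48.7% of *stag2b*-/- cells (144 of 296) lay outside the posterior gate, with intervals of 19.3 to 34.2 and 42.8 to 54.5. The gate counts raw UMIs, the median depth of these cells was 20437 and 16570 UMIs, and no thinned share was computed. Cells of the upper tertile outside the slow programme were 40 in wild type and 123 in *stag2b*-/-, 0.224% and 0.482% of kept barcodes. By contrast *msgn1* was at 811 and 815 CPM in the upper tertile.

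Over all muscle cells, genes of the earlier paraxial mesoderm were close to the median gene. Of 20 tested, 1 was higher and 1 lower, beside 8.31% higher and 3.92% lower over all genes, and the median log2 ratio was 0.06. *msgn1* was at 1565 and 1510 CPM, *tbx16* at 521 and 470 CPM and *tbx6* at 794 and 849 CPM. *ripply1*, which ends the presomitic programme at the somite boundary, was at 394 and 746 CPM (0.92), and *her12*, a gene of the segmentation clock, at 751 and 322 CPM (-1.22). Both were unequal in the other barcodes too, at 161 and 338 CPM and at 1187 and 692 CPM. *mespab* was at 1147 and 866 CPM (-0.41), short of the threshold. All 7 tested genes of somite derivatives lay below the median gene, with a median of -0.35, and the fibronectin gene *fn1b* was called lower at 921 and 476 CPM (-0.95, against -0.81 in other barcodes). None of 10 S-phase genes was called, with *pcna* at 117 and 103 CPM, and of 12 genes of G2 and M phase *aurkb* was called lower at 56.0 and 32.1 CPM, a call lost under 5 alternatives. *mki67* was at 154 and 161 CPM over all muscle cells, but by tertile it was at 273 and 270, 103 and 142, and 31.8 and 71.9 CPM. Among the 7 genes of cycle exit tested none was called, and *cdkn1ca* was at 604 and 517 CPM.

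The largest differences between genotypes were, with the exception of *csrp1b*, in genes outside the muscle lists, and they were shared with the other barcodes. The 10 largest falls were *CABZ01079276.1*, *znfl1l*, *si:dkey-102m7.3*, *tmem119b*, *ppp1r14aa*, *BX640512.3*, *gpx4a*, *hsp70.2*, *rab34b* and *anxa1c*, and all 10 were at least 1.5-fold lower in the other barcodes. *CABZ01079276.1* was at 82.7 and 0.431 CPM (log2 ratio -7.58) and *znfl1l*, a zinc finger gene, at 93.8 and 1.24 CPM (-6.24). The 10 largest rises were *csrp1b*, *si:dkey-286j15.3*, *s100a1*, *si:ch211-281l24.3*, *mctp1b*, *fthl31*, *CR847906.1*, *si:dkey-104n9.1*, *znfl1k* and *CR450793.1*, and all 10 were at least 1.5-fold higher in the other barcodes. *znfl1k*, a relative of *znfl1l*, was at 42.9 and 284 CPM (2.73). *gpx4a*, a glutathione peroxidase, was at 81.9 and 8.63 CPM in muscle cells (-3.25) and at 82.6 and 8.18 CPM elsewhere (-3.34). *znfl1k* and *znfl1l* belong to a family of similar genes, so that counting could divide their reads.

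Epidermis and blood genes were among the genes whose ratio in muscle cells differed most from that in other cells. *hbae3* and *hbbe3*, embryonic globins, were at 8.78 and 56.5 CPM and at 34.8 and 110 CPM in muscle cells (log2 ratios 2.69 and 1.66), although *hbbe3* was detected in 12.0% of wild-type and 9.46% of *stag2b*-/- muscle cells. Without barcodes of other lineages the ratios were 0.57 and 0.07. The keratins *krt5*, *krt92*, *krt18a.1* and *krt4* were lower in *stag2b*-/- muscle cells, with log2 ratios of -2.21, -2.22, -1.73 and -0.93, and were at 0.10, 0.29, 0.13 and 0.59 without these barcodes. *epcam* went from 0.96 to -0.40 and *anxa1c* from -3.13 to -0.36. The gates that removed these barcodes include *hbae3*, *hbbe3*, *epcam* and *krt4* themselves. The change in the ratios of these genes therefore follows in part from the choice of barcodes and is a description only. The sarcomere median was 0.57 with and without these barcodes. The part of RNA from other lineages in the differences of these genes was not tested beyond this comparison.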

How the data were processed

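Single-cell RNA-seq was done on tailbuds of 16 hpf zebrafish embryos, 1 library per genotype. The authors deposited UMI counts per gene and barcode (raw counts, not normalized), made with Cell Ranger 7.1.0 per the submitters' processing notes. Reads were assigned to GRCz11 with the Lawson transcriptome, introns included, per the study's methods. The labels give 10x chemistry v2 and the methods v3.

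Rows with the same symbol were summed, which gave 27119 symbols from 27771 rows. Barcodes with at least 3000 UMIs and at most 15% mitochondrial UMIs were kept and muscle cells chosen by the rule given at the start. The members, gene lists and alternatives were chosen with earlier results of these data known. UMIs were summed per library and scaled to CPM of the same cells. A gene was called at 1.5-fold or more where the higher of both levels reached 50 CPM. With 1 library per genotype no test was made, and every interval (95%) covers counting error only. Differences between muscle and other cells have normal-approximation intervals on the log scale and needed 10 UMIs in each sum of other barcodes. Gates for other lineages needed 5 UMIs and 2 genes. Thinning drew 3000 UMIs per barcode without replacement. No doublet caller was run. Simulated counts for 2607 genes were Poisson draws from the wild-type sums, with 200 genes changed 2-fold. All 200 were called, no unchanged gene was called, and 95.4% of intervals covered the true ratio. The simulation held counting error only, without variation between cells, embryos or libraries. It therefore checks the arithmetic and not the calls made on these data.

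Genes are named where they belong to the fixed lists and passed the call or define the cells, or are among the 10 largest rises or falls, the 10 on each side that differed most from other cells, or the 10 highest over other cells. Others were named after their values were seen. Alternatives changed the minimum of UMIs, the mitochondrial limit, the marker sum, the *sox* limit, the CPM minimum and the fold. They also changed the depth by thinning, each defining gene, the scaling, the weighting of cells, and possible doublets. The requirement for 3 detected genes was not changed in any of them. For named genes, a call was counted as kept or lost by the ratio alone, without applying the 50 CPM minimum again. The gate of 5 other muscle genes, the definition without *ttn.2*, *myl10* or *tnnt2c*, the stricter set of other barcodes and the segmenting cells were added after seeing the data. Python 3.11.15, numpy 2.4.6, scipy 1.17.1, pandas 2.3.3 and matplotlib 3.10.9 were used, with edgeR 4.0.16 in R 4.3.3 for TMM factors only.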

Additional observations from a re-analysis of the deposited data

Results flagged for a closer look

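Among the named genes, 9 outside the definition were called in muscle cells and had a ratio of *stag2b*-/- to wild type of opposite sign in other barcodes, with counting intervals on opposite sides of 0. None of these differences was tested, since each genotype is 1 library. All but *mef2cb* were named because their muscle ratio lay among those furthest above that of other barcodes. The opposite sign follows in part from that choice, and such genes were not counted over all genes tested. Only *tnc* and *alcama* stayed past 1.5-fold under all 15 alternatives. The ratio in muscle cells minus that in other barcodes, on the log2 scale, was 1.66 for the matrix gene *tnc*, 1.51 for the adhesion molecule *alcama* and 0.87 for *mef2cb*. It was 2.81 for the globin *hbae3* and 2.46 for *hbbe3*, 1.45 for the claudin *cldni*, 1.28 for *tagln2*, 1.23 for *epcam* and 1.22 for the collagen *col14a1a*. Among listed genes outside the definition that reached 50 CPM in either library in both the upper and the lower tertile of the sarcomere score, 5 had ratios of opposite sign with counting intervals on opposite sides of 0 and at least 1 of the ratios past 1.5-fold, also untested. The upper minus the lower ratio was 2.30 for *meox1*, 2.11 for *mespba*, 1.82 for *tcf15* and 1.17 for *ripply2*, all genes of somite formation, and -1.87 for the keratin *krt4*.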

How the results depend on the processing

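No paired analysis was possible because each genotype is 1 library. The share of muscle cells in wild type and *stag2b*-/- was 3.05% and 3.68% with no *sox2*, *sox3* or *sox19a* UMI allowed, 4.50% and 5.24% without possible doublets, 2.13% and 3.22% after thinning, 1.60% and 2.76% without *acta1a*, 1.71% and 2.85% without *ttn.2*, 1.69% and 2.85% without *myl10*, and 2.54% and 3.42% with the 5 other genes. A marker sum of 10 gave 3.19% in wild type. The slow-programme share was 15.5% and 18% after thinning, 57.3% and 48.5% without *acta1a*, 53.8% and 47.9% without *ttn.2*, 55.0% and 47.0% without *myl10*, 37.7% and 40% with the 5 other genes, and 67.4% and 65.2% with 2 UMIs and no minimum of detected slow genes. It was therefore larger in wild type under 4 of these, and the cause was not tested. Higher and lower genes numbered 127 and 233 under TMM, 672 and 249 from 20 CPM, and 68 and 45 at 2-fold. The sarcomere median was 0.11, 0.14 and 0.12 without *acta1a*, *ttn.2* or *myl10*, 0.22 under TMM, and 0.28, 0.11 and 0.26 by tertile, with 5 and 6 higher genes in the lower and middle tertile. Each of these medians is over the genes that reached 50 CPM under that setting, so that the gene sets differ.

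Signs turned without possible doublets for *col14a1a* (-0.26), *epcam* (-0.40), *krt18a.1* (0.13), *krt4* (0.59), *krt5* (0.10) and *krt92* (0.29). They turned after thinning for *cldni* (-0.07), *epcam* (-0.05) and *tagln2* (-0.45), and with no *sox* UMI allowed for *krt18a.1* (0.01) and *krt4* (0.24). The gates that removed possible doublets include *epcam* and *krt4*, whose turn there follows in part from the choice. Among all ratios of named genes under the alternatives, 868 stayed within their counting interval, 426 moved further and 11 of called genes turned. Genes with few UMIs, such as *mylpfa* and *mymk*, have wide counting intervals.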
